A study of Mus musculus with 4 samples.

Results

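Livers of DTrsp mice, which lacked the selenocysteine tRNA gene Trsp in the liver, were compared with wild-type livers on 2-colour arrays. This comparison is 1 of the 4 columns of the deposited table, and it was taken by the column's label with no selection of genes. All 15478 probes had a value, and the probes annotated with a single gene were averaged to give 9285 genes. Mice of both genotypes were littermate B6/FVB males aged 7 to 8 weeks on a selenium-sufficient diet, with 1 pair of RNAs per array. DTrsp liver RNA was labelled with Cy5 and wild-type liver RNA with Cy3. The labels add that the knockout liver was harvested after several passages, and the labels used here name neither a Cre recombinase nor the promoter that drove it. The other columns hold mice with mutant Trsp transgenes against wild type: A34 with 2 copies, G37L with 2 copies and G37H with 16 copies. These are given only to place the DTrsp values, and whether the 4 columns share wild-type animals is not stated.

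Selenocysteine tRNA delivers selenocysteine to the ribosome and is needed for every selenoprotein. Selenoproteins include glutathione peroxidases and thioredoxin reductases, which remove peroxides and keep thiols reduced. The transcription factor NRF2, held down by KEAP1, switches on genes for glutathione synthesis, glutathione transferases, quinone reduction and NADPH supply when electrophiles or oxidants accumulate. Liver is the main organ for these conjugation reactions and for export of the conjugates.

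Each value was the authors' average log ratio over biological replicates, labelled as 4 animals, so the spread between animals is not in the data used here. No test, p-value or SD over animals can be given, and every statement below describes 1 averaged value per gene. Values were read as log2 of DTrsp over wild type, although the base of the logarithm is not stated. That direction is likely, from the dye labels alone, since the sample title names wild type first; with the ratio turned, higher and lower would be exchanged throughout. A gene was counted as higher or lower where its log2 ratio was at least 1 from 0, which is 2-fold. The closest genes to this threshold were Cox8a at 1.001 inside and Spryd7 at 0.9997 outside on the higher side, and Slc5a3 at -1.001 inside and Rgs5 at -0.997 outside on the lower side.

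Of the 9285 genes, 304 (3.27%) exceeded wild type by 2-fold or more in DTrsp livers, and 150 (1.62%) lay below it by 2-fold or more. The median log2 ratio was 0.16 and the quartiles were -0.15 and 0.44, so the column as deposited was shifted above 0. Values ran between -3.41 and 4.21. After centring on the column median, 172 genes (1.85%) passed on the higher side and 259 (2.79%) on the lower side. Any gene less than 0.16 above 1 loses its 2-fold call with this centring. Ribosomal proteins, oxidative phosphorylation subunits, hepatocyte markers and reference housekeeping genes, 175 genes together, had a higher median of 0.49. They are called the abundant transcripts here, although their abundance was not measured and some may be scarce. Centred on the abundant transcripts, 80 genes (0.862%) passed on the higher side and 821 (8.84%) on the lower side. Of the medians of the 56 gene lists described below, 51 were above 0 as deposited, 47 after centring on the column median and 16 after centring on the abundant transcripts. A list median above 0 and below 0.49 therefore changes sign with the last of these centrings. The plot of all genes shows the shift and both tails.

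**Figure D1:**
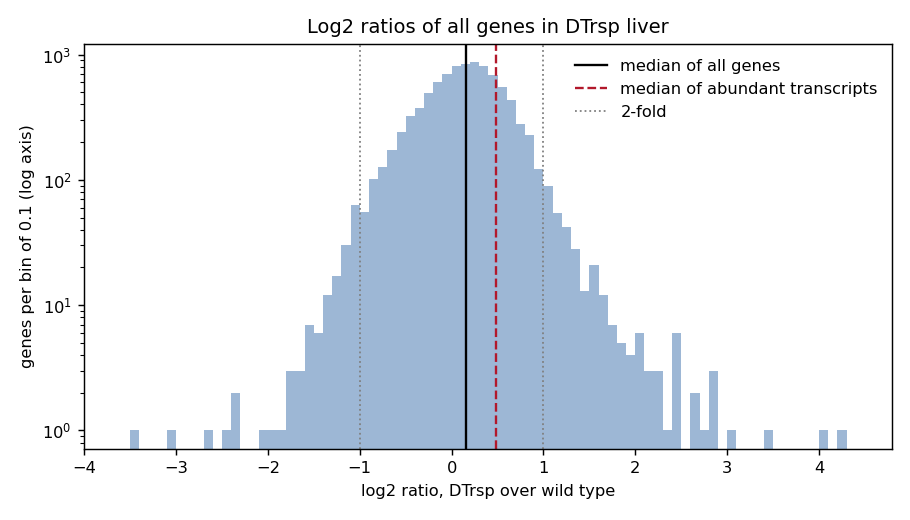
Histogram of the log2 ratio of DTrsp over wild type (horizontal axis) for all 9285 genes, with genes per bin on a logarithmic vertical axis, lines at the medians of all genes and of the abundant transcripts, and dotted lines at 2-fold. The centre lies at 0.16 rather than 0, and the tails beyond 2-fold hold 304 genes on the higher side and 150 on the lower side.

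The array carried many probes for a few genes, which shows how far probes of 1 transcript spread within this column. Actb, cytoskeletal actin, had 31 probes with a mean log2 ratio of 0.47 ± 0.26 (SD over probes). Gapdh, a glycolytic enzyme, had 30 probes at 0.58 ± 0.30, and B2m, the light chain of class I histocompatibility molecules, had 67 probes at 0.37 ± 0.41. None of the 31 Actb probes reached 2-fold, but 26 of 54 probes for Hprt, a purine salvage enzyme, did, with a mean of 0.91 ± 0.44. Tbp, a general transcription factor, had 42 probes at -0.71 ± 0.41, of which 10 were at least 2-fold lower. The 1791 genes with exactly 2 probes had a median difference of 0.43 between the probes. Of the 304 higher genes, 36 had more than 1 probe, and every probe passed 2-fold in 15 of them. Of the 150 lower genes, 8 had more than 1 probe, and every probe passed in 4. These spreads are between probes, not between animals, and Actb, Gapdh, B2m, Hprt and Tbp were picked, after their values were seen, as familiar reference genes among those with 10 or more probes.

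The selenoproteins themselves were mostly within 2-fold of wild type at the RNA level. Of 19 measured, Selenow, a small thiol-binding selenoprotein, was at least 2-fold lower, and Sephs2, which makes the selenium donor and is itself a selenoprotein, was at least 2-fold higher. Their median was -0.01. After centring on the column median, 0 were at least 2-fold higher and 2 lower, since Sephs2 lost its call and Txnrd2, described below, gained one. Trsp has no named probe here, so its loss was not checked on these arrays.

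Among the 4 stress-related selenoproteins, whose mRNAs are known to fall when selenium is short, all were below 0. Selenow was at -1.02 in DTrsp livers, -1.47 with A34, -1.60 with G37L and -1.59 with G37H. Gpx1, the main cytosolic glutathione peroxidase, was at -0.55 in DTrsp livers, -0.83 with A34, -0.95 with G37L and -0.57 with G37H. Both genes were below 0 in all 4 columns, and for both the DTrsp value as deposited was the nearest to 0. For Gpx1 that order rests on the column offsets. The G37H column had a median of -0.11 over all genes, against 0.16 for the DTrsp column. With each column centred on its own median, Gpx1 is nearer to 0 with G37H than in DTrsp livers. Msrb1, which reduces oxidised methionine, was at -0.27, and Gpx3, the plasma glutathione peroxidase, at -0.12. Only Selenow among the 4 reached 2-fold.

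Among 7 housekeeping selenoproteins, 6 were above 0, with a median of 0.24. Sephs2 was at 1.09 in DTrsp livers, 1.21 with A34, 0.01 with G37L and -0.25 with G37H. Txnrd1, the cytosolic thioredoxin reductase and also an NRF2 target, was at 0.71 in DTrsp livers, -0.07 with A34, -0.17 with G37L and -0.31 with G37H. Gpx4, which reduces lipid peroxides, was at 0.48, Selenon at 0.24, the selenium transport protein Selenop at 0.21 and the endoplasmic reticulum protein Selenof at 0.07. Txnrd2, the mitochondrial thioredoxin reductase, was the exception at -0.85. The 2 thioredoxin reductases thus lay on opposite sides of 0 in DTrsp livers.

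The other 8 selenoproteins lay between -0.67 for Dio1, the hepatic deiodinase that activates thyroid hormone, and 0.78 for Gpx2, a glutathione peroxidase and NRF2 target. The 3 Dio1 probes gave -0.76, -0.86 and -0.38. Selenov was at -0.48, Selenok at -0.39, Selenoo at -0.22, Selenoi at -0.01, Selenos at 0.06 and the deiodinase Dio2 at 0.45. Of 13 factors that make or insert selenocysteine, none reached 2-fold. Their extremes were Trit1, a tRNA isopentenyl transferase, at -0.87 and Elavl1, an RNA-binding protein, at 0.77. Sepsecs, which converts the charged tRNA to its selenocysteine form, was at -0.16 with probes between -0.79 and 0.58, Pstk, the kinase before it, at -0.36, Secisbp2, which binds the selenocysteine insertion element, at 0.07, and Scly, which recycles selenium, at 0.36. The remaining factors Ncl, Sephs1, Sars, Eif4a3, Cdk5rap1, Trnau1ap and Rpl30 lay between -0.06 and 0.66.

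**Figure D2:**
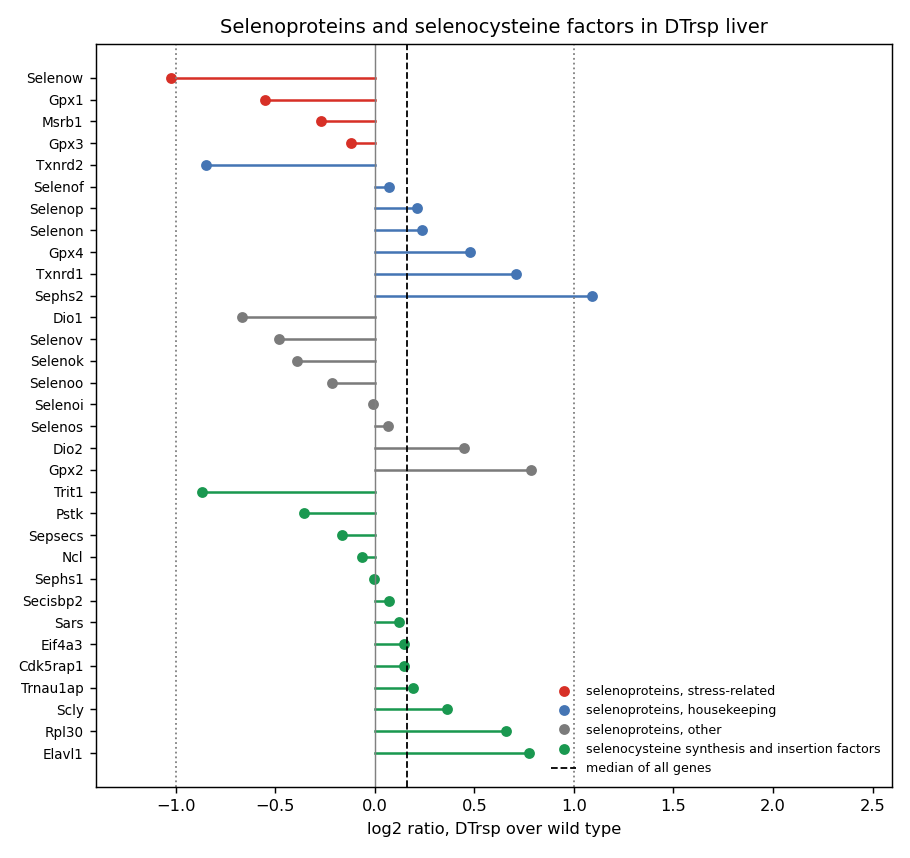
Log2 ratio of DTrsp over wild type (horizontal axis) for each measured selenoprotein and selenocysteine factor, coloured by list, with the median of all genes dashed and 2-fold dotted. Selenow at -1.02 and Sephs2 at 1.09 are the only members past a dotted line.

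Detoxification lists held many genes past 2-fold on the higher side. These lists, like the others, were chosen with earlier results of these data known. In 7 lists that cover glutathione transferases, glutathione synthesis, quinone and carbonyl reduction, NADPH supply and glucuronidation, 31 of 83 genes (37.3%) were higher in DTrsp livers by 2-fold or more and 0 were lower by as much, against 3.27% and 1.62% of all genes. Their median was 0.72, against 0.16 over all genes, and 73 were above 0. After centring on the column median 25 still passed 2-fold on the higher side. The same 83 genes had medians of 0.17 with A34, -0.28 with G37L and -0.07 with G37H. Over all genes these columns had medians of 0.07 with A34, -0.11 with G37L and -0.11 with G37H. The plot of list medians sets these lists beside the rest. For each list count below, the shares to set beside it are the same 3.27% higher and 1.62% lower of all genes.

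**Figure D3:**
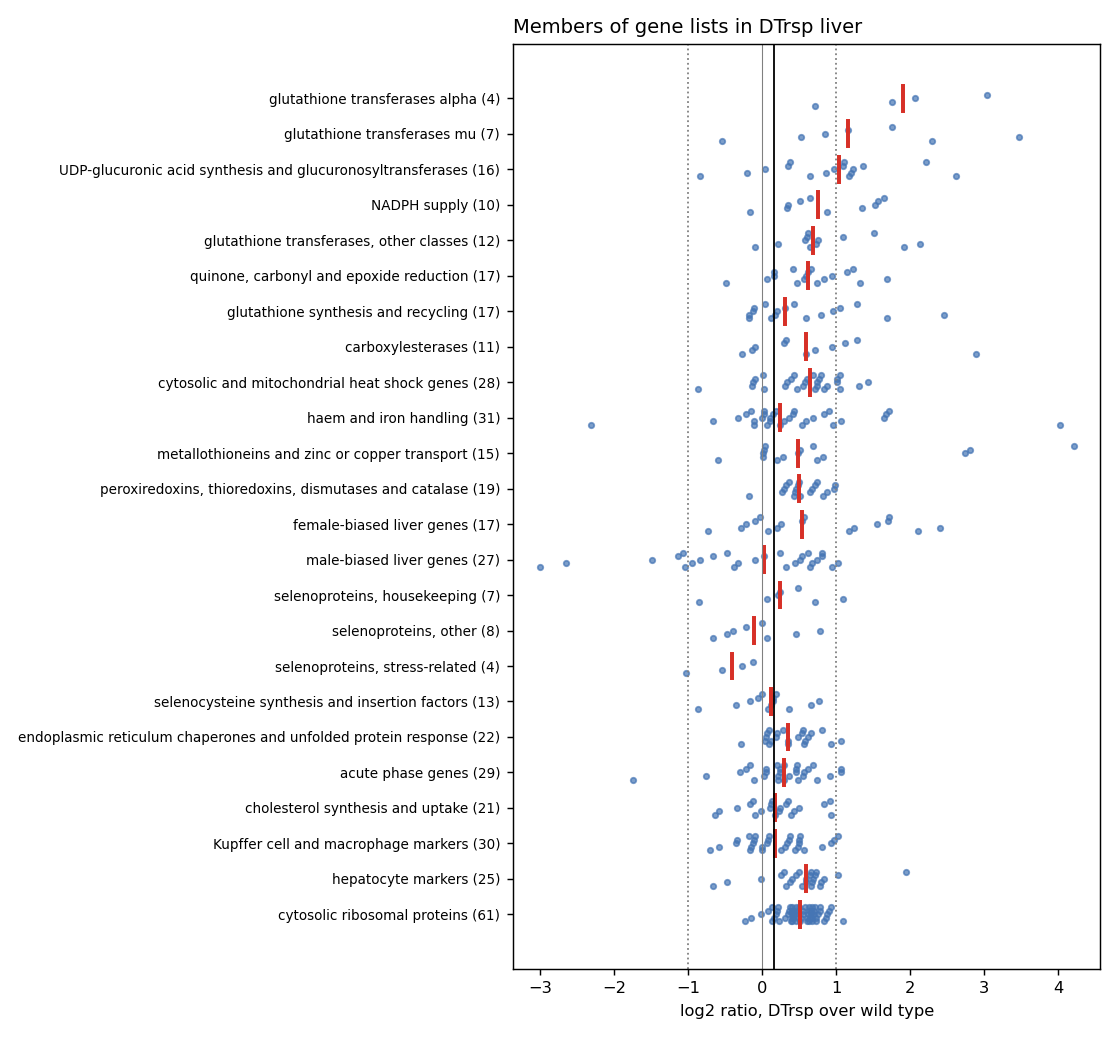
Log2 ratio of DTrsp over wild type (horizontal axis) for the members of selected gene lists, with a point per gene, a red bar at the list median, a black line at the median of all genes, dotted lines at 2-fold and the number measured in parentheses. The alpha glutathione transferases have a median of 1.91, the mu class 1.15 and glucuronidation 1.03, against 0.16 over all genes.

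Glutathione transferases join glutathione to electrophiles. Of 23 measured, 11 were at least 2-fold higher and 0 lower, with a median of 0.85. In the mu class Gstm3 was at 3.46 in DTrsp livers, 0.33 with A34, 0.02 with G37L and 0.25 with G37H, so it stood 11.03-fold above wild type in DTrsp livers and near wild type in the transgenic lines. Gstm4 was at 2.30, Gstm6 at 1.75, Gstm2 at 1.15, Gstm1 at 0.85, Gstm7 at 0.52 and Gstm5 at -0.54. Probes of 1 gene disagreed in this class: Gstm6 had 0.90 and 2.59, Gstm2 had 2.16 and 0.15, and Gstm1 had 1.63 and 0.07. The mu genes are near-identical in sequence and the probe sequences were not used here, so signal shared between members was not checked.

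In the alpha class, which also reduces lipid hydroperoxides, Gsta4 was at 3.04 in DTrsp livers, 0.14 with A34, -0.57 with G37L and 0.79 with G37H. Gsta4 conjugates hydroxynonenal, a product of lipid peroxidation. Gsta1 was at 2.06, Gsta2 at 1.75 and Gsta3 at 0.71, so all 4 measured members were above 0. Of the other classes, Gstt3 was at 2.14, the microsomal Mgst3 at 1.91 with probes at 2.49 and 1.33, Gstt1 at 1.52 and Gsto1 at 1.09. Gstp3 had its large values in other columns, at 0.58 in DTrsp livers, 1.12 with A34, 3.63 with G37L and 4.89 with G37H. The pi-class gene was thus the member with the largest values in the G37 lines and was not 2-fold apart in DTrsp livers. The other members of these classes, Gstcd, Gstk1, Gstz1, Gstp1, Mgst1, Gstt2 and Gsto2, lay between -0.10 and 0.75.

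Of 17 glutathione synthesis and recycling genes, 4 were at least 2-fold higher. Gclc, the catalytic subunit of the rate-limiting enzyme of glutathione synthesis, was at 2.46 in DTrsp livers, 0.56 with A34, -0.60 with G37L and 0.09 with G37H. Its modifier subunit Gclm was at 1.28. Gsr, which reduces oxidised glutathione with NADPH, was at 1.69, and the glutaredoxin Glrx at 1.05. The list median was only 0.31, and Gss, the second enzyme of the pathway, averaged 0.31 over probes at -0.67 and 1.29, which lie on opposite sides of 0. The transsulfuration enzymes Cbs and Cth, which make cysteine, were at 0.12 and 0.17 in DTrsp, with Cth probes at -0.28 and 0.62. Cth was far lower in the G37 lines, at -2.47 in G37L and -2.35 in G37H.

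NADPH, the reductant for Gsr, thioredoxin reductase and carbonyl reductases, comes from the enzymes of the next group. Of 10 NADPH supply genes, 4 were at least 2-fold higher and the median was 0.76. Me1, malic enzyme, was at 1.65 in DTrsp livers, -0.97 with A34, -0.76 with G37L and -0.27 with G37H. Idh2, the mitochondrial isocitrate dehydrogenase, was at 1.56, Pgd of the pentose phosphate pathway at 1.52, and the transketolase Tkt at 1.34. The mitochondrial transhydrogenase Nnt was the only member below 0, at -0.17. Among 17 quinone, carbonyl and epoxide enzymes, the microsomal epoxide hydrolase Ephx1 was at 1.69, the carbonyl reductase Cbr1 at 1.32, the aldehyde reductase Akr1a1 at 1.23 and the quinone reductase Nqo1 at 1.14, with Nqo1 probes at 1.06 and 1.23. Akr1b8 at -0.49 was the only one of the 17 below 0.

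In glucuronidation, 8 of 16 members were at least 2-fold higher, with a median of 1.03. Ugdh, which makes UDP-glucuronic acid, was at 2.62 in DTrsp livers, 0.07 with A34, -0.13 with G37L and -0.21 with G37H. Ugp2, which makes its precursor UDP-glucose, was at 1.36 and Slc35d1, which carries UDP-glucuronic acid into the endoplasmic reticulum, at 1.22. These 3 genes act one after the other, from UDP-glucose to the lumen of the reticulum. Of the transferases, Ugt2b35 was at 2.21, Ugt1a10 at 1.20 with probes at 0.42 and 1.99, Ugt2b34 at 1.17, Ugt2b5 at 1.11 and Ugt3a1 at 1.09. Ugt3a2, Ugt1a9, Ugt2b1, Ugt2a3, Ugt1a6a and Ugt1a5 lay between 0.03 and 0.97. Ugt1a1, the bilirubin transferase, was at -0.20 and Ugt2b38 at -0.84. Members of the Ugt1a cluster share exons and the Ugt2b genes are close paralogs, so single members are uncertain. The sequence before the Ugdh start, from RefSeq for GRCm38.p6 (chr5:65435843-65436092, minus strand), is printed because Ugdh was the highest of the group. Capitals mark the 2 matches to TGACNNNGC, the core of the antioxidant response element that NRF2 is known to bind. That core was in 2 of 15 glucuronidation genes with a promoter (13.3%), against 16.8% of 7539 measured genes, so Ugdh is not typical of the group.

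Ugdh: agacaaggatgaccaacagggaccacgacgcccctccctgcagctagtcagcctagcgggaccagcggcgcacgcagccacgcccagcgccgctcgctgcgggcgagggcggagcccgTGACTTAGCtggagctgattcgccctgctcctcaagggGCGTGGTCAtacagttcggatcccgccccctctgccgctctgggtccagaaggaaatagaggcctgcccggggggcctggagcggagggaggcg

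**Figure D4:**
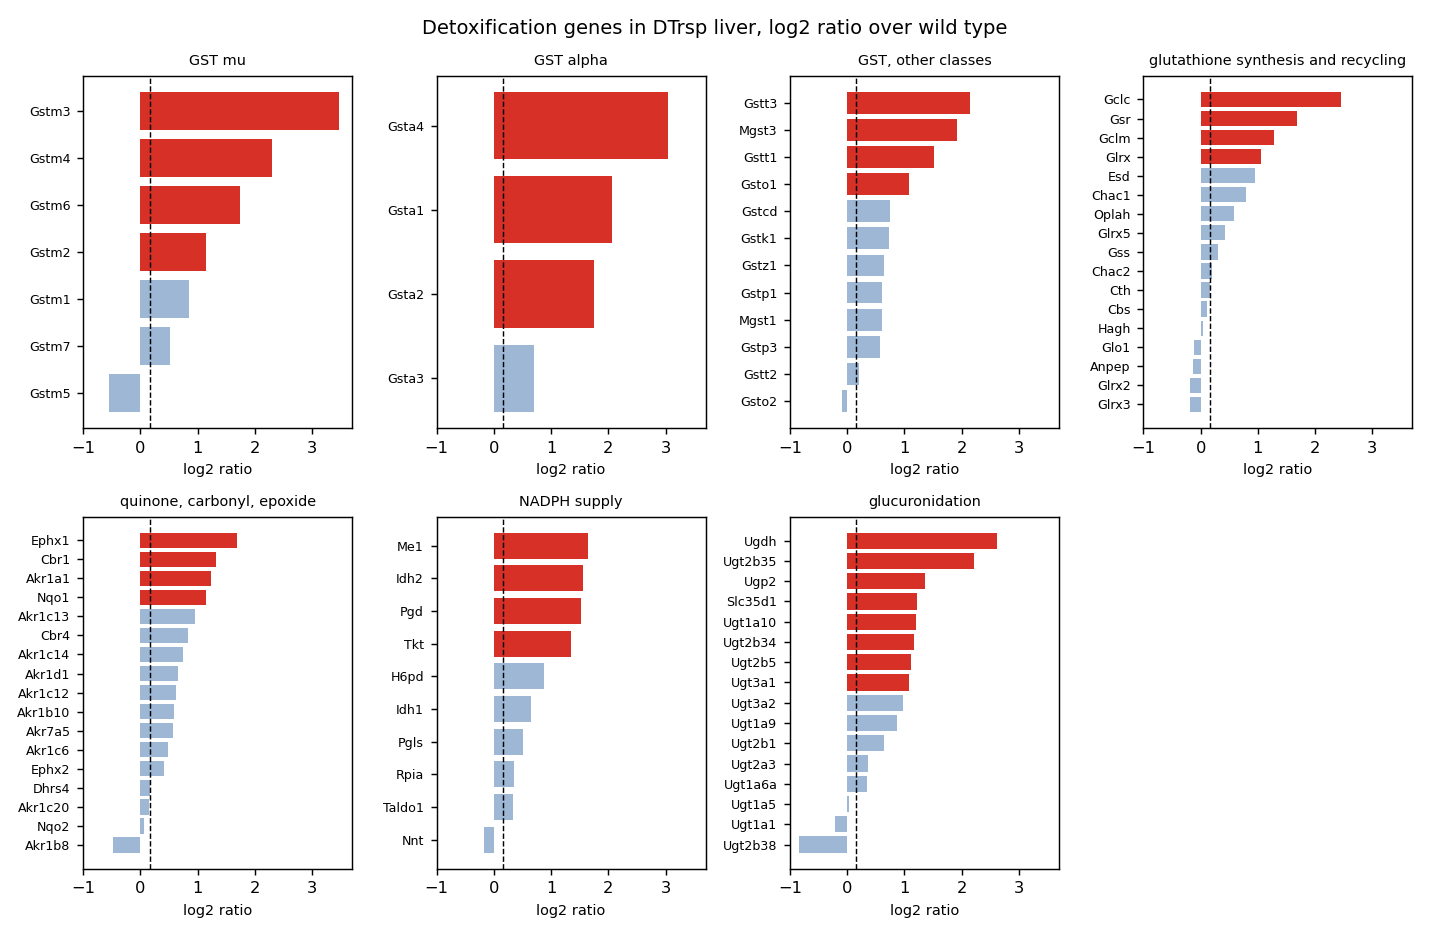
Log2 ratio of DTrsp over wild type (horizontal axis) for all 83 members of the 7 detoxification lists, with bars at least 2-fold higher in red, the others in pale blue and the median of all genes dashed. Gstm3 at 3.46, Gsta4 at 3.04 and Ugdh at 2.62 have the longest bars, and no bar reaches 2-fold lower.

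Of 14 genes listed with the NRF2 pathway, 2 (14.3%) were at least 2-fold higher, against 3.27% of all genes. Both are known as targets of NRF2 rather than its regulators. Osgin1, an oxidative stress-induced growth inhibitor, was at 1.67, and Srxn1, which repairs over-oxidised peroxiredoxins, at 1.15. Sqstm1, which binds KEAP1, was at 0.85. The mRNA of NRF2 itself, Nfe2l2, was at 0.12 and that of its repressor Keap1 at -0.06, with 4 Keap1 probes between -0.60 and 0.53. The small Maf partners of NRF2 lay apart, with Mafk at 0.81, Mafg at 0.15 and Maff at -0.80. Bach1, which competes with NRF2 for its sites, was at 0.69. The others, Cul3, Rbx1, Bach2, Tfe3 and Nfe2l1, lay between 0.16 and 0.65.

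The classical peroxide-removing enzymes outside the selenoproteins shifted little. Of 19 peroxiredoxins, thioredoxins, dismutases, paraoxonases and catalase, 0 were at least 2-fold apart, although 18 were above 0 and the median was 0.49. That median equals that of the abundant transcripts at the printed precision. Txn2, the mitochondrial thioredoxin, was at 0.99, Msra at 0.98, Prdx1 at 0.88, Sod2 at 0.82, Sod1 at 0.74 and Cat at 0.71.

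Genes that act after or beside conjugation were split. Of 18 transporters, the conjugate exporters Abcc3 at 1.39, Abcc2 at 1.22 and Abcc5 at 1.18 were at least 2-fold higher, and the 2 Abcc2 probes gave 0.58 and 1.85. The bile salt exporter Abcb11, at -0.05, was not. The uptake transporter Slco1a1 was the third lowest gene of the whole array at -2.66, with probes at -2.16 and -3.16, while in the transgenic lines it was between 0.36 and 0.49. Of 11 carboxylesterases, which hydrolyse esters and lipids, Ces1g was at 2.88 in DTrsp livers, 1.24 with A34, -1.16 with G37L and 1.59 with G37H. Ces2g was at 1.28 and Ces1e at 1.12, and the other 8 lay between -0.28 for Ces3a and 0.94 for Ces2a.

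Of 21 aldehyde and flavin oxidases, 4 were at least 2-fold higher: the flavin mono-oxygenase Fmo1 at 1.17, the retinal dehydrogenase Aldh1a1 at 1.13, its neighbour Aldh1a7 at 1.07 and the aldehyde oxidase Aox1 at 1.04. After centring on the column median 1 of the 4 passed, and the 2 Aox1 probes lay on opposite sides of 0, at 2.598 and -0.515. Of 32 cytochromes P450 of families 1 to 3, the higher ones were all of subfamily 2a, whose Cyp2a5 hydroxylates coumarin. Cyp2a5 was at 2.65, with probes at 2.89, 1.91 and 3.14, Cyp2a4 at 1.70 and Cyp2a12 at 1.29 with probes at 2.06 and 0.53. The lower ones were Cyp2c54 at -1.12 and Cyp2c50 at -1.04. Cyp2a4 and Cyp2a5 are near-identical, as are Cyp2c50 and Cyp2c54, so members of each pair are uncertain. Of 15 sulfotransferases and methyltransferases, none was at least 2-fold higher, and Nnmt, which methylates nicotinamide, was at -1.75.

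The highest values of any named gene were in metal and haem handling. Mt2, a metallothionein that binds zinc and copper, was the highest of all 9285 genes at 4.21, or 18.5-fold, in DTrsp livers, and reached 1.67 with A34, 4.46 with G37L and 4.43 with G37H. Mt1 was at 2.74 in DTrsp livers, 1.48 with A34, 3.94 with G37L and 3.16 with G37H. Mt4, known from squamous epithelia, was at 2.80, and Mt3, known from brain, at 0.02. Mt1 and Mt2 were thus at least 2-fold higher in all 4 columns. Signal shared between Mt4 and the other metallothioneins was not checked. The other 11 zinc and copper genes stayed within 2-fold, between Atox1, a copper chaperone, at 0.82 and Atp7b, the copper exporter, at -0.60. Mtf1, the transcription factor that binds metal response elements, was at 0.28. The zinc exporter Slc30a1 was at 0.68, and Slc39a4, Slc39a8, Ccs, Commd1, Slc30a10, Slc31a1 and Slc39a14 lay between 0.01 and 0.73.

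The sequences before the starts of Mt2 (chr8:94172368-94172617, plus strand) and Mt1 (chr8:94178839-94179088, plus strand), from RefSeq for GRCm38.p6, are printed because these neighbouring genes were both high. Capitals mark matches to the metal response element, searched as TGCACNC and TGCGCNC on both strands, and in Mt2 also TGACTCAGC. In the window of 250 bases before to 50 after the start, Mt2 has 4 metal response matches and Mt1 has 3. Of 7539 measured genes, 15.2% held TGCACNC and 29.2% TGCGCNC. The printed stretch stops at the start, so 1 match of Mt2 and 2 of Mt1 lie beyond it.

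Mt2: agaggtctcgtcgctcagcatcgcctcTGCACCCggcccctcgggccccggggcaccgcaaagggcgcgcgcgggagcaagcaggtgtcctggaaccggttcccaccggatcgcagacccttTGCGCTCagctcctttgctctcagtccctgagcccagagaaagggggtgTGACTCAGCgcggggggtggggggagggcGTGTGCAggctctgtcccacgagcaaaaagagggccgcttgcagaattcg
Mt1: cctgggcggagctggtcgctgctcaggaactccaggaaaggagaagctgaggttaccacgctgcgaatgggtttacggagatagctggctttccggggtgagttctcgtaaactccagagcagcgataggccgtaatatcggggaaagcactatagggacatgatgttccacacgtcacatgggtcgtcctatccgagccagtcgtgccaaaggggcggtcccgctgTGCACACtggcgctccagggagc

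Hmox1, which breaks down haem to biliverdin, carbon monoxide and iron, was the next highest gene, at 4.03 in DTrsp livers, 0.62 with A34, 1.27 with G37L and 1.09 with G37H. It was 16.3-fold above wild type in DTrsp livers. Blvrb, a biliverdin reductase, was at 1.68, and the iron exporter ferroportin, Slc40a1, at 1.64. The hepcidin paralog Hamp2 was at 1.71, while hepcidin itself, Hamp, was at 0.24. The ferritin chains Ftl1 and Fth1, which store iron, were at 0.96 and 0.90, and Lcn2, which binds iron-loaded siderophores, was at 1.07. The ferritin receptor Scara5 ran the other way, at -2.31 in DTrsp livers, -0.15 with A34, 1.81 with G37L and 1.58 with G37H. In all, 5 of 31 haem and iron genes (16.1%) were at least 2-fold higher and 1 (3.23%) lower, with a list median of 0.24. Of all genes, 3.27% were higher and 1.62% lower by as much. Haem synthesis enzymes were near wild type, with Alas1 at -0.32.

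The haemoglobin genes lay on the higher side as well, with Hbb-b1 at 1.37, Hbb-b2 at 1.34 and Hba-a1 at 1.13. Of 10 erythroid markers these 3 were at least 2-fold higher, and the median was 0.51. Markers of red cell precursors were not, with Alas2 at -0.15, Klf1 at -0.48 and Ank1 at -0.95, while Tfrc, Tspo2, Slc4a1 and Car2 lay between 0.33 and 0.59. Whether more blood in the sample bears on the haem and iron values was not tested.

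In the heat shock list, 6 of 28 members (21.4%) passed 2-fold on the higher side as deposited, against 3.27% of all genes. After centring on the column median 2 did so, against 1.85% of all genes. Dnajb1, a co-chaperone of Hsp70, was at 1.43, Hspb1, a small heat shock protein, at 1.31, and Hsph1, a nucleotide exchange factor, at 1.05. The mitochondrial chaperones Hspa9 and Hspd1 were at 1.05 and 1.01, and Hsp90aa1 at 1.003. Bag2 at -0.86 was the lowest. Of 22 chaperones and sensors of the endoplasmic reticulum, only P4hb (4.55%), the protein disulfide isomerase, reached 2-fold, at 1.06. The list median there was 0.35 in DTrsp, against 1.04 in G37L. Of 37 proteasome genes, Psmd12 at 1.33 and Psma4 at 1.15 reached 2-fold (5.41%), 34 were above 0 and the median was 0.50. The sequence before the Hspb1 start (RefSeq, GRCm38.p6, chr5:135887669-135887918, plus strand) is printed as an example of the heat shock pair GAANNTTC, whose 2 matches are in capitals.

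Hspb1: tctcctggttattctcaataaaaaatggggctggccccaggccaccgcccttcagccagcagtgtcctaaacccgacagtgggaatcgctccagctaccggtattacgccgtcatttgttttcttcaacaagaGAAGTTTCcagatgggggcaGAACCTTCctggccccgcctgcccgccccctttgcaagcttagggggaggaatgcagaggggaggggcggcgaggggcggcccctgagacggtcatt

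That pair was present in 9 of 24 heat shock genes with a promoter in the table (37.5%), against 7.00% of 7539 measured genes. The share was 6.64% of the higher genes and 2.59% of the lower genes. Counted per promoter rather than per gene, the pair was in 7.86% of all 32851 promoters.

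The list of male-biased liver genes held more lower genes than any other of the 56 lists. Male-biased genes, which depend on the pulsed growth hormone of males, had 6 of 27 at least 2-fold lower and 1 higher. Hsd3b5, a 3-ketosteroid reductase, was at -3.01 in DTrsp livers, 0.53 with A34, -0.995 with G37L and -0.76 with G37H. Its paralog Hsd3b4, which is not on this list, was the lowest gene of all at -3.41. Besides Slco1a1, given above, the other lower ones were the complement component C6 at -1.49 with probes at -1.21 and -1.76, Cyp7b1, which hydroxylates oxysterols, at -1.08, Susd4 at -1.04 and Mup5, a urinary protein, at -1.14. Cyp7b1 was between 1.14 and 1.26 in the transgenic lines. The median of the 27 was nevertheless 0.02, and Keg1, at 1.03, was the higher one. After centring on the column median, 7 of the 27 were at least 2-fold lower and 0 higher.

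Female-biased genes had 7 of 17 (41.2%) at least 2-fold higher and 0 lower, with a median of 0.54. Of all genes, 3.27% were higher and 1.62% lower by as much. Cd36, a fatty acid translocase, was at 2.41 in DTrsp livers, -1.23 with A34, -1.63 with G37L and -1.92 with G37H. Cyp4a14, a fatty acid hydroxylase, was at 2.10 in DTrsp livers, -3.10 with A34, -1.63 with G37L and -1.32 with G37H. Both genes were thus higher in DTrsp livers and lower in each transgenic line. Hamp2 and Cyp2a4, given above, Cyp17a1, a steroid hydroxylase, at 1.55, Rtn4 at 1.24 and Fmo1 made up the rest. All animals were labelled male. Of 20 genes of the growth hormone axis, Igfbp1, which binds insulin-like growth factors, was at 1.12, and the liver transcription factor Onecut1 was at -1.32, with probes at -1.09 and -1.56.

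Lipid lists differed in how many members passed. Of 21 cholesterol synthesis and uptake genes, 0 were at least 2-fold apart, and Hmgcs1, at 0.93, was the highest, with -1.56 in A34. Of 33 fatty acid and triglyceride synthesis genes, only Cd36 and Me1 passed. Of 39 genes of fatty acid oxidation, Cyp4a14 and Acox2, the peroxisomal oxidase that shortens bile acid side chains, at 1.14, passed, 34 were above 0 and the median was 0.41, against 0.16 over all genes. Lipoprotein lipase, Lpl, was at 2.01. In bile acid synthesis, Cyp8b1, which makes cholic acid, was at 1.52 and Cyp7b1, of the alternative pathway, was lower as above, and 4 of 23 genes in all (17.4%) were at least 2-fold higher, against 3.27% of all genes.

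In glucose metabolism 6 of 30 genes were at least 2-fold higher and 1 lower, with a median of 0.54, and 3 were higher after centring on the column median. Gbe1, the glycogen branching enzyme, was at 1.59, the glucose transporter Slc2a1 at 1.19, pyruvate carboxylase Pcx at 1.08 and the gluconeogenic Fbp1 at 1.02. Pfkfb3, which drives glycolysis, was at -1.06. The 27 retinol and steroid genes had members past 2-fold on both sides, 5 above wild type and 2 below it. Those above included Adh1, an alcohol and retinol dehydrogenase, at 1.95, Rdh16 at 1.44, Hsd17b12 at 1.26 and Hsd17b6 at 1.02. The lowest member was Hsd3b4, at -3.41. Of 44 genes of methionine, amino acid and urea metabolism, 1 was at least 2-fold higher, which is near the 3.27% of all genes. In glucose metabolism the share that passed on the higher side was 20.0% as deposited.

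The medians of the plasma protein and inflammation lists lay between 0.18 and 0.30, against 0.16 over all genes. Shares past 2-fold were less close in some lists. Protease inhibitors had 5.88% higher and 5.88% lower, and antigen presentation and interferon genes 4.88% and 7.32%, against 3.27% and 1.62% of all genes. Of 29 acute phase genes, 2 were higher, Orm1 and Lcn2, each at 1.07, and 1 was lower, Nnmt. Their median was 0.30 in DTrsp, against 1.51 in G37L. Of 27 complement components, only C6 passed, and of 21 coagulation factors none did. Among 34 protease inhibitors, Serpina7, which carries thyroid hormone, was at 1.70 and Serpinf1 at 1.05, while Serpina3b was at -2.30 and A2m, a broad protease inhibitor, at -1.38. A2m was at 2.02 in G37L and 3.24 in G37H. Of 41 antigen presentation and interferon genes, Cxcl9 at 1.15 and Ifi47 at 1.03 were higher, and Slfn2 at -1.80, H2-Bl at -1.92 and H2-Q6 at -1.09 were lower.

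Growth and injury genes gave a few large values around medians near the rest of the array. Lgals1, a galectin of fibroblasts and immature cells, was at 2.49 and Lgals3, a galectin of macrophages, at -1.41, so these paralogs lay on opposite sides. Stmn1, which destabilises microtubules, was at 2.82, and the tubulins Tubb2a and Tuba1c were at 2.43 and 2.09. These microtubule genes were between -0.27 and 0.74 in the transgenic lines. Mvp, the major vault protein, was at 1.59. Of 25 proliferation genes, Stmn1 and the securin Pttg1 at 1.07 were higher, and Mcm3, which licenses DNA replication, was at -1.30. Of 17 p53 and stress response genes, Atf5 at 1.45 and Eif4ebp1 at 1.01 were higher and the p53 target Bbc3 at -1.03 was lower.

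Markers of liver cell types were set side by side to describe the liver RNA, since ratios cannot check which tissue was used. Of 25 measured hepatocyte markers, 22 were above 0 and the median was 0.59. Albumin, Alb, was at 0.79, Ttr at 0.78, Hnf4a at 0.64 and Trf, transferrin, at -0.67. Of 30 Kupffer cell markers the median was 0.18 and only Cd163, a haemoglobin scavenger receptor, passed 2-fold, at 1.02. Endothelial markers had a median of 0.21 over 23 genes and lymphocyte markers 0.30 over 7. Stellate cell and matrix genes had -0.04 over 32, and ran between -0.997 and 1.32, the value of Col4a2. Bile duct markers had 0.19 over 3 and neutrophil markers -0.17 over 5. In bulk liver RNA, a change in the number of cells of a type and a change in RNA per cell cannot be told apart. The values are ratios, so they do not show how strongly any marker was expressed, and their part in the other results was not tested. The median of all genes was 0.16. Clock genes (22, median -0.01, Per1 at -1.03), nuclear receptors (27, median 0.12) and amino acid and sugar carriers (28, median 0.30) lay near it. Lipoprotein genes (27, median 0.42) lay farther above it.

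Among the 30 highest genes, those not yet named were Xylt1, which starts glycosaminoglycan chains, at 2.46, with 2.79 in A34, the interferon lambda receptor Ifnlr1 at 2.40, the Hsp70 relative Hspa13 at 2.33 and Ssxb1 at 2.23. The aromatic amino acid decarboxylase Ddc was at 2.13 with probes at 2.29 and 1.97, the ammonia transporter Rhbg at 2.10, and Ddah1, which degrades methylated arginines, at 2.10 with probes at 2.09 and 2.10. Tmem176a was at 2.05 and Entpd5, a nucleotide phosphatase of the endoplasmic reticulum, at 1.98 with probes at 2.28 and 1.69. Of the 304 higher genes, 105 (34.5%) were on 1 of the 56 lists, against 25 of the 150 lower genes (16.7%) and 12.4% of all genes. The lists were chosen with earlier results of these data known, so these shares are not independent of the values.

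The lowest 30 were a more mixed set. They included Adgrv1, an adhesion receptor known from the inner ear, at -2.48, Fam25c at -2.05, the adhesion molecule Ncam2 at -1.78, the vomeronasal channel Trpc2 at -1.70 and the testicular hormone Insl3 at -1.69. Styk1 was at -1.63, the carotenoid-cleaving Bco2 at -1.51, Bcr at -1.51, Olfml3 at -1.50, Mia2 at -1.50 and Gna12 at -1.46. The succinate receptor Sucnr1 was at -1.42 and Nox4, an NADPH oxidase that makes hydrogen peroxide, at -1.42. The remaining ones, 1700008O03Rik, Mical1, Noxred1, Sorcs3, Pla2g7, Npepps and Smyd5, lay between -1.73 and -1.39. Several of these genes are known mainly from other tissues, and without intensities no level above background can be shown for them.

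**Figure D5:**
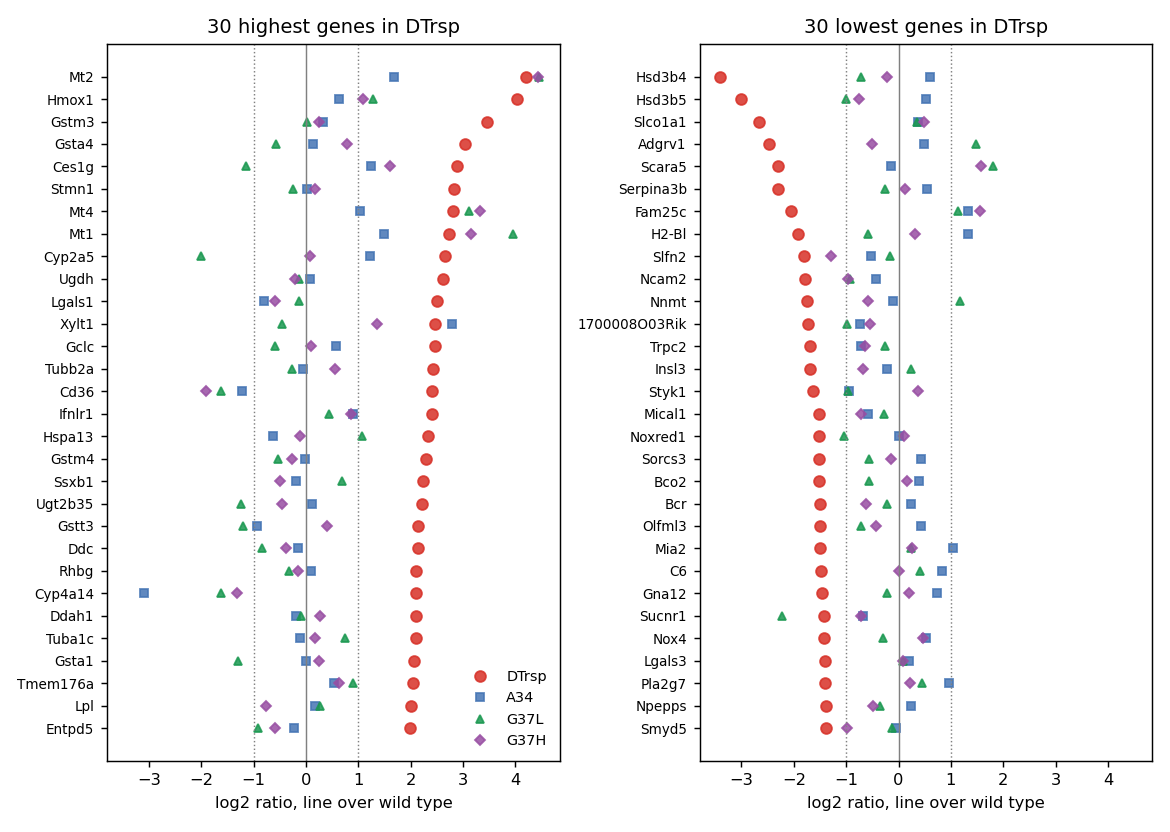
Log2 ratio to wild type (horizontal axis) of the 30 highest and 30 lowest genes of DTrsp livers, with a symbol for each of DTrsp, A34, G37L and G37H. Mt2 is at least 2-fold higher in all 4 lines, Gstm3 lies between 0.02 and 0.33 in the transgenic lines, and Cyp4a14 is at 2.10 in DTrsp and -3.10 in A34.

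The decimals of the deposited averages tell how many arrays some of them rest on. A mean of 4-decimal values over 4 arrays can end in a fraction of the last decimal that a mean over fewer arrays cannot give, and 5482 probes (35.4%) did so. Another 2174 probes (14.0%) ended in a fraction that a mean over 3 arrays gives and a mean over 4 does not. The probes that needed 4 arrays had a median of 0.25 with 256 probes at least 2-fold higher and 53 lower, while the 3-array probes had a median of -0.06 with 37 higher and 89 lower. In genes, 125 of the 304 higher (41.1%) but 21 of the 150 lower (14.0%) had every probe needing 4 arrays, against 29.5% of all genes. Of the 30 lowest genes, 2 needed 4 arrays, 7 had a 3-array fraction and 16 showed no fraction. Of the 30 highest, these counts were 15, 2 and 6. Over all 9285 genes they were 2735, 965 and 2195 (23.6%). A value with no fraction fits any number of arrays, so its number is unknown. Mt2, Hmox1, Gclc, Cd36 and Hsd3b5 needed 4 arrays, Lgals3 and Scara5 had a 3-array fraction, and Gstm3, Ugdh and Selenow showed no fraction.

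Some genes past 2-fold lay next to each other among measured genes. On the higher side 48 genes formed 23 runs and on the lower side 14 genes formed 7 runs. The number of such runs grows with the number of genes past the threshold, so the sides are not compared. The runs included Gstm6, Gstm3 and Gstm2 on chromosome 3, Gsta4, Gsta1 and Gsta2 on chromosome 9, Gstt3 and Gstt1 on chromosome 10, Mt2 and Mt1 on chromosome 8, Ugt2b35 and Ugt2b5 on chromosome 5, and Tmem176b and Tmem176a on chromosome 6. On the lower side they included Hsd3b4 and Hsd3b5 on chromosome 3 and Cyp2c54 and Cyp2c50 on chromosome 19. Many are tandem paralogs, where probes can share signal, which was not checked. Positions are by order in the mouse gene table of GRCm38.p6.

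Promoters were searched on both strands for the letters of the antioxidant response element, in windows of 250 bases before to 50 after each RefSeq start. The core TGACNNNGC was in 12.4% of all 32851 promoters, 16.8% of 7539 measured genes, 20.3% of 256 higher genes and 18.1% of 116 lower genes. In the 7 detoxification lists it was in 10 of 73 genes (13.7%). The longer form TGACTCAGC, which contains the core, was in 0.454% of all promoters, 0.610% of measured genes, 8 of 256 higher genes (3.13%) and 0 of 116 lower genes. Only 1 of those 8, Me1, is on a detoxification list. No match says only that the letters are not in this window. The metal element TGCACNC was in 22.3% of higher and 12.1% of lower genes, against 15.2% of measured genes, and TGCGCNC was in 59 of 256 higher genes (23.05%) and 27.6% of lower genes, against 29.2%.

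The 60 bases around the longer form are printed for all 8 higher genes that hold it, since they show what flanks the shared letters. Sequences are RefSeq's for GRCm38.p6, 5′ to 3′ on the gene's strand, and capitals mark TGACTCAGC or its reverse complement. Besides Mt2 and Me1 they are Tbcel, a tubulin-binding protein, at 1.66, Pir, an iron-binding nuclear protein, at 1.32, Acox2 at 1.14, the thrombin receptor F2r at 1.05, Ikbkg, a subunit of the kinase that activates NF-kappaB, at 1.03 and C77080 at 1.03. Tbcel, Pir, F2r, Ikbkg and C77080 are named because of this match, after their values were seen. The Mt2 window was chr8:94172514-94172573 on the plus strand. The Tbcel window was chr9:42461471-42461530 on the minus strand. The Me1 window was chr9:86695886-86695945 on the minus strand. The Pir window was chrX:164269192-164269251 on the plus strand. The Acox2 window was chr14:8258998-8259057 on the minus strand. The F2r window was chr13:95618638-95618697 on the minus strand. The Ikbkg window was chrX:74424549-74424608 on the plus strand. The C77080 window was chr4:129261417-129261476 on the minus strand.

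Mt2: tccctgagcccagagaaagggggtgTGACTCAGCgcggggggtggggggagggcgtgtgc
Tbcel: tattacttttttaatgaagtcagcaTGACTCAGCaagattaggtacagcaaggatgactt
Me1: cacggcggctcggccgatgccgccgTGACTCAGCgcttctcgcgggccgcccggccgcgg
Pir: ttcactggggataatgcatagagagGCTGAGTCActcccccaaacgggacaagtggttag
Acox2: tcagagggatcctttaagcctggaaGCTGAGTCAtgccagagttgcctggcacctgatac
F2r: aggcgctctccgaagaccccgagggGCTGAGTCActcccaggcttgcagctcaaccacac
Ikbkg: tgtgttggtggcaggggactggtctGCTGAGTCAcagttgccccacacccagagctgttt
C77080: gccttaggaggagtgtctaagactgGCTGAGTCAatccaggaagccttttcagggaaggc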

How the data were processed

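Liver RNA was measured on 2-colour oligonucleotide arrays, with 15 µg of total RNA copied from an oligo-dT primer, per the labels. The deposited log2 values were made by the authors as averages over biological replicates, per the labels. How the authors normalized, corrected for background, filtered spots or swapped dyes is not stated in the labels used here, nor is the base of the logarithm, and natural logs are possible. Signal intensities were not used here, so nothing can be said of background, and the number of arrays limits the precision.

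Of 15478 probes, 12984 took a name by matching their annotated gene identifier to the mouse gene table of GRCm38.p6, and 63 kept their own symbol. The 2321 unlisted probes and the 110 with several genes stayed unnamed. Averaging gave 6871 genes with 1 probe and 2414 with more. With 1 averaged column no test was run, and values as deposited are the main ones. Alternatives were other centrings, thresholds of 1.5-fold and 3-fold, the median of probes, means over members, genes with 1 probe, every probe past 2-fold, natural logarithms and probes whose decimals need 4 arrays, read with a tolerance of 0.02 of a step. Promoters were matched by symbol for 7539 measured genes, with any listed promoter counting in the shares and 1 printed. The counting was tested on simulated data. Python 3.11.15, numpy 2.4.6, pandas 2.3.3 and matplotlib 3.10.9 were used.

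The members and gene lists were chosen with earlier results of these data known. Genes named are the 30 highest and 30 lowest, the selenoproteins and their factors, list members at least 2-fold apart, the 6 members of a list farthest from 0 and members of lists with 15 or fewer measured. Chosen after their values were seen, for their role or as an extreme, were Abcb11, Akr1b8, Alas1, Bag2, Cbs, Cth, Ftl1, Fth1, Gss, Hamp, Trf, Tmem176b and the glucuronosyltransferases within 2-fold.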

Additional observations from a re-analysis of the deposited data

Results flagged for a closer look

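Of the 60 highest and lowest genes of DTrsp livers, 13 were at least 2-fold apart from wild type in the opposite direction in another line. They are listed here because their ratios run opposite ways in the 2 columns. Each column is an average, whether the columns share wild-type animals is not stated, and the difference was not tested. An opposite call in any other line was enough to be listed. Of all 9285 genes, 130 were at least 2-fold higher with A34 and 42 lower. These counts were 233 and 368 with G37L, and 258 and 288 with G37H. The share of all genes with opposite calls was not counted, so the 13 have no background share beside them. The differences below are DTrsp minus the other line, on the log2 scale, for the line farthest from DTrsp. That line was picked by its value, so each difference is an extreme.

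Among genes low in DTrsp livers, Adgrv1 was at -2.48, against 1.48 in G37L, a difference of -3.96. The ferritin receptor Scara5 was at -2.31, against 1.81 in G37L, a difference of -4.12. Fam25c was at -2.05, against 1.56 in G37H, a difference of -3.61. H2-Bl was at -1.92, against 1.33 in A34, which gives -3.26, and Nnmt was at -1.75, against 1.17 in G37L, which gives -2.91. Mia2, an endoplasmic reticulum export protein, was at -1.50, against 1.04 in A34, a difference of -2.54.

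Among genes high in DTrsp livers, detoxification enzymes stood against G37L. Ces1g was at 2.88, against -1.16 in G37L, a difference of 4.04, but it was at 1.24 in A34 and 1.59 in G37H. Cyp2a5 was at 2.65, against -2.001 in G37L, a difference of 4.65, but it was at 1.22 in A34. Ugt2b35 was at 2.21, against -1.24 in G37L, which gives 3.45, and Gstt3 was at 2.14, against -1.21 in G37L, which gives 3.35. Gsta1 was at 2.06, against -1.31 in G37L, a difference of 3.37. The fatty acid genes were at least 2-fold lower in each transgenic line, with Cd36 and Cyp4a14 both at -1.63 in G37L. Cd36 was at 2.41, against -1.92 in G37H, a difference of 4.32. Cyp4a14 was at 2.10, against -3.10 in A34, a difference of 5.20.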

How the results depend on the processing

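No paired analysis was possible because each comparison is 1 averaged column, and no replicate could be left out. The counts of genes past the threshold as deposited, 304 higher and 150 lower, moved with the centring, to 172 and 259 on the column median and to 80 and 821 on the abundant transcripts. They moved by construction with the threshold, to 1448 and 646 at 1.5-fold and to 61 and 15 at 3-fold, and with natural logarithms, to 950 and 440. Restricted to probes whose decimals need 4 arrays, 3970 genes gave 166 higher and 31 lower. Chosen after seeing the data, genes whose every probe needs 4 arrays, centred on the column median, gave 82 and 38 of 2735. The higher share of all genes past 2-fold was thus 39.9% on the column median, 8.88% on the abundant transcripts, 84.3% for probes that need 4 arrays and 68.3% in the added setting. The median of probes gave 302 and 153, genes with 1 probe 268 and 142, and every probe past 2-fold 283 and 146.

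Of 56 list medians, 49 moved by more than the spread of their members when centred on the abundant transcripts, 10 with natural logarithms, 3 on the column median and 1 as a mean, and 0 with the median of probes or 1-probe genes. On the abundant transcripts, the median of stress-related selenoproteins was -0.90, of the other glutathione transferases 0.19, of glutathione synthesis -0.18, of quinone and carbonyl reduction 0.14 and of glucuronidation 0.54. With natural logarithms, alpha glutathione transferases gave 2.75, the other classes 0.98 and glucuronidation 1.49. Of these, only glutathione synthesis changed sign.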

Other observations

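The 2431 probes left unnamed had a median log2 ratio of 0.15 in DTrsp livers, with 124 at least 2-fold higher and 55 lower. The 2321 probes that the annotation does not list ran between -2.20 and 2.33. Of the 110 probes annotated with several genes, 8 were at least 2-fold higher and 1 lower, and the highest, at 4.50, exceeded every named gene.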
